A study of Rattus norvegicus with 8 samples.

Results

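The 8 genes of sterol and fatty acid synthesis, Srebf1, Insig1, Hmgcs1, Idi1, Sqle, Acly, Fasn and Scd1, were followed in castrated rats after a single dose of androgen, in a series whose title names muscle atrophy. They were found by name among the gene spots of the arrays, and each had 1 probe, so they are 8 of the 26295 gene names and 8 of the 30367 probes on the array. Of these, 7 were tested and Scd1 was not, because its probe was rarely above background. The RNA came from adult male Wistar rats aged 120 ± 12 days. All rats were castrated, the controls included. Treated rats received testosterone propionate, an injectable androgen ester, subcutaneously at 4 mg/kg in corn oil at 1 mL/kg, and were compared with castrated controls 8 h and 24 h later on 2-colour arrays. There were 4 arrays at each time, each holding 1 treated and 1 control sample. The labels describe the RNA of both channels as castrated rat cells (C3d) and name no muscle. The series' design calls the arrays biological replicates. The labels do not say whether a sample is 1 animal or a pool, whether controls received oil, or whether arrays share control RNA. If arrays repeat RNA of the same animals, the p-values measure technical spread only. If samples are separate pools, they measure spread between pools.

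Sterol and fatty acid synthesis is governed by the sterol regulatory element-binding proteins (SREBPs), transcription factors made as inactive precursors in the endoplasmic reticulum membrane. The escort protein SCAP carries the precursor to the Golgi, where proteases release the active fragment, and INSIG proteins hold SCAP back when sterols are plentiful. SREBP-1, the product of Srebf1, is best known for driving fatty acid synthesis, and in muscle its expression is known to respond to insulin and feeding. Hmgcs1, Idi1 and Sqle encode steps of the mevalonate and cholesterol pathway. Acly supplies cytosolic acetyl-CoA to both pathways, Fasn builds palmitate from it and Scd1 introduces a double bond into the product.

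Replicates 1 and 2 of 8 h stood apart. Replicate 1 had the widest spread, with log2 ratios of the kept probes at an SD of 0.437 against 0.18 to 0.198 on the other arrays of that time, and replicate 2 correlated with replicates 1, 3 and 4 at 0.275, -0.12 and -0.036. With either left out, no member was called at 8 h. At 24 h the SD was 0.235 to 0.303 on the 4 arrays.

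At 24 h, 4 of the 7 tested genes rose: the transcription factor gene Srebf1, Acly, and the sterol pathway genes Hmgcs1 and Idi1. No member fell past the threshold (adjusted p of 0.05, limma, Benjamini-Hochberg over all probes tested), and Fasn, Sqle and Insig1 did not pass. Among all 12073 probes tested at 24 h, 6.9% were called, 4.15% higher and 2.75% lower. All 7 had an unadjusted p under 0.05, 6 with a log2 ratio above 0 and Insig1 with one below, against 22% of all probes in either direction. The genes were picked with earlier results of these arrays known. Sqle entered the test only through its treated samples at 24 h, and Fasn only through its treated samples. These counts therefore describe the members and are no test of the pathway. Without the 24 h array of replicate 2, 3 or 4 the number that rose was 2, 1 or 1.

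Srebf1 had the largest of the members' log2 ratios in the main processing. Its log2 ratios of treated over control at 24 h were 0.79, 0.72, 0.63 and 1.14 on the arrays of replicates 1 to 4. All 4 arrays were above 0, as for 15.4% of the probes kept, whereas 13.4% were below 0 on all 4. The treated levels, from 9.95 to 10.55 on the normalized log2 scale, did not overlap the control levels, from 9.26 to 9.76. The mean was 0.82 (SD 0.23, n = 4, adjusted p = 0.000535), or 1.77-fold, with a 95% interval on the log2 scale from 0.63 to 1.01. The call held without any one of the 8 arrays (adjusted p at most 0.00968). Among the tested probes, 99.7% had a lower log2 ratio at 24 h. The Srebf1 probe lies at chr10:46462235-46462294 on the rat assembly rn4, the build of the array files; exon or untranslated region was not analysed here.

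**Figure D1:**
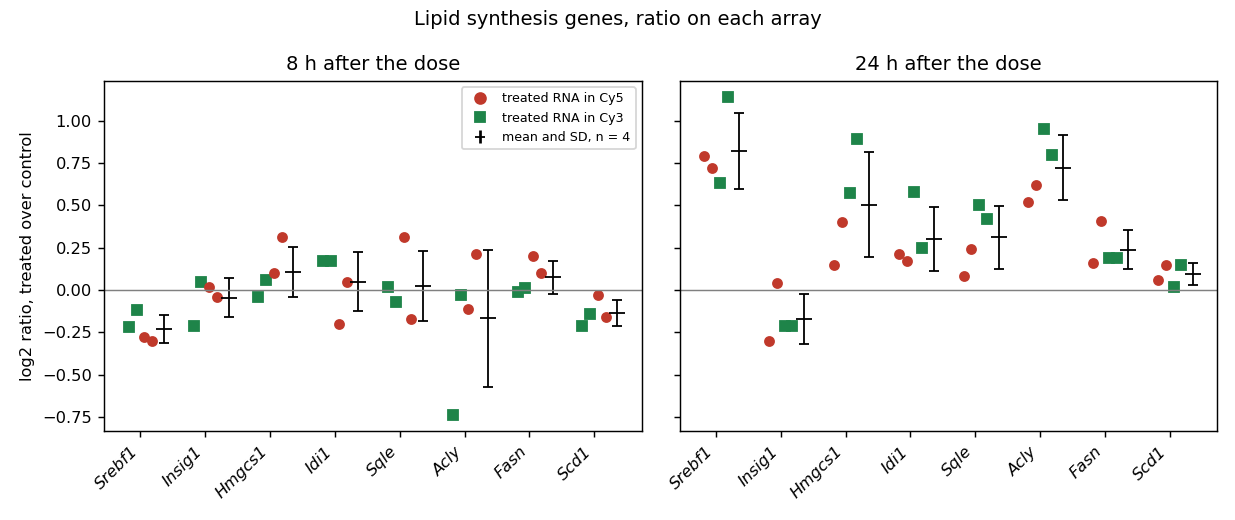
Log2 ratio of treated over control on each array (y axis) for the 8 genes (x axis) at 8 h (left) and 24 h (right); circles have the treated RNA in Cy5, squares in Cy3, and bars give the mean and SD of 4 arrays. Srebf1 lay below 0 on all 4 arrays at 8 h, from -0.30 to -0.12, and above 0 on all 4 at 24 h, from 0.63 to 1.14.

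Insig1, whose product retains the SREBP precursor and which is itself a known SREBP target in liver and cultured cells, went the other way. Its log2 ratios at 24 h were -0.30, 0.04, -0.21 and -0.21, so that 3 of 4 arrays lay below 0 and the array of replicate 2 did not. The mean of -0.17 (SD 0.15, n = 4, 95% interval -0.34 to 0.00) did not pass (adjusted p = 0.22). The probe was dim: it was well above background in 1 of 4 treated and 3 of 4 control samples at 24 h, against 4 of 4 treated and 3 of 4 controls at 8 h. Treated and control levels overlapped at both times. The Insig1 probe lies at chr4:2578292-2578348 (rn4).

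Of the sterol pathway enzymes, Hmgcs1, which makes hydroxymethylglutaryl-CoA, had log2 ratios at 24 h of 0.15, 0.40, 0.57 and 0.89. All 4 arrays were above 0 and treated levels (8.16 to 8.41) did not overlap control levels (7.52 to 8.04). Hmgcs1 rose by 0.50 (SD 0.31, n = 4, adjusted p = 0.0234), or 1.42-fold. The ratios were lower with the treated RNA in Cy5 (mean 0.27, 2 arrays) than in Cy3 (mean 0.73, 2 arrays). At 8 h the order was the reverse (0.21 in Cy5 and 0.01 in Cy3). The fitted dye coefficient of -0.07 did not pass (adjusted p = 0.772), but it is shared by both times and does not measure the 24 h difference alone. At 24 h Srebf1 (0.76 and 0.88), Acly (0.57 and 0.88), Idi1 (0.19 and 0.42) and Sqle (0.16 and 0.46) were also lower in Cy5. Fasn, Insig1 and Scd1 were not. Leaving out replicate 2, 3 or 4 of 24 h ended the call (adjusted p from 0.0817 to 0.105). Its probe lies at chr2:51754514-51754573 (rn4).

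Idi1, which isomerises the 5-carbon isoprenoid unit, had log2 ratios of 0.21, 0.17, 0.58 and 0.25 at 24 h. All arrays were above 0, the array of replicate 3 highest, and treated levels (6.78 to 6.91) lay above control levels (6.25 to 6.70). Idi1 rose by 0.30 (SD 0.19, n = 4, adjusted p = 0.0424), or 1.23-fold. This call sat near the threshold: it was lost without 6 of the 8 arrays taken singly, with adjusted p up to 0.203, and without a dye coefficient (adjusted p = 0.0831). The Idi1 probe lies at chr17:72557223-72557282 (rn4).

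Sqle, which adds the epoxide to squalene, was well above background in all 4 treated samples at 24 h and in no control sample and no sample of 8 h. On every array of 24 h, treated RNA had more probes well above background than control RNA. For replicates 1 to 4 the shares were 44.9%, 39.1%, 38.7% and 36% in treated and 36.8%, 34.4%, 34.3% and 32.8% in control. The share of all probes with the pattern of Sqle was not analysed here. The background-subtracted signal of Sqle at 24 h, not adjusted for dye, ran from 21.7 to 35.4 scanner units in treated samples. In controls it ran from -0.237 to 11.1, so the groups did not overlap. The normalized log2 ratios were 0.08, 0.24, 0.50 and 0.42, and the fitted mean of 0.31 (SD 0.19, n = 4) did not pass (adjusted p = 0.0797), and did with replicate 3 of 8 h left out (adjusted p = 0.0433). Because no control was well above background, the fold was taken against controls raised to the lowest signal called well above background. On these means Sqle was 1.20-fold higher in treated samples. That value takes no account of the spread among arrays and is no lower limit. The 95% interval of the fitted log2 ratio ran from 0.10 to 0.52. The probe lies at chr7:96111693-96111752 (rn4).

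Among the fatty acid genes, Acly, which cleaves citrate to acetyl-CoA, had log2 ratios at 24 h of 0.52, 0.62, 0.95 and 0.80. All arrays were high, and treated levels (8.17 to 8.42) did not overlap control levels (7.47 to 7.75). Acly rose by 0.72 (SD 0.19, n = 4, adjusted p = 0.0135), or 1.65-fold, with a 95% interval from 0.42 to 1.03. Leaving out replicate 3 of 24 h (adjusted p = 0.0804) or replicate 4 (adjusted p = 0.068) ended the call. The Acly probe lies at chr10:89420943-89421002 (rn4).

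Fasn, the synthase downstream of Acly, had smaller ratios at 24 h of 0.16, 0.41, 0.19 and 0.19. All 4 arrays lay above 0 and the array of replicate 2 stood apart. The mean of 0.24 (SD 0.12, n = 4, 95% interval 0.09 to 0.39) did not pass (adjusted p = 0.062), although treated levels (6.42 to 6.65) lay above control levels (6.23 to 6.32). Fasn passed once replicate 1 of 8 h was left out (adjusted p = 0.0479). Fasn was well above background in 4 of 4 treated and 1 of 4 control samples at 24 h, and the array file gives its probe no genome position. Over all probes, detection at 24 h was also higher in treated RNA, as given for Sqle.

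Scd1, the desaturase, was well above background in 0 of 8 samples at 24 h and in 1 treated and 1 control sample at 8 h, and was not tested. Its log2 ratios at 24 h ran from 0.02 to 0.15 and its treated and control levels overlapped. RefSeq now names this gene Scd, and the array's probe called Scd is the paralogue Scd2, described with the wider pathway. The Scd1 probe lies at chr1:249458860-249458919 (rn4).

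**Figure D2:**
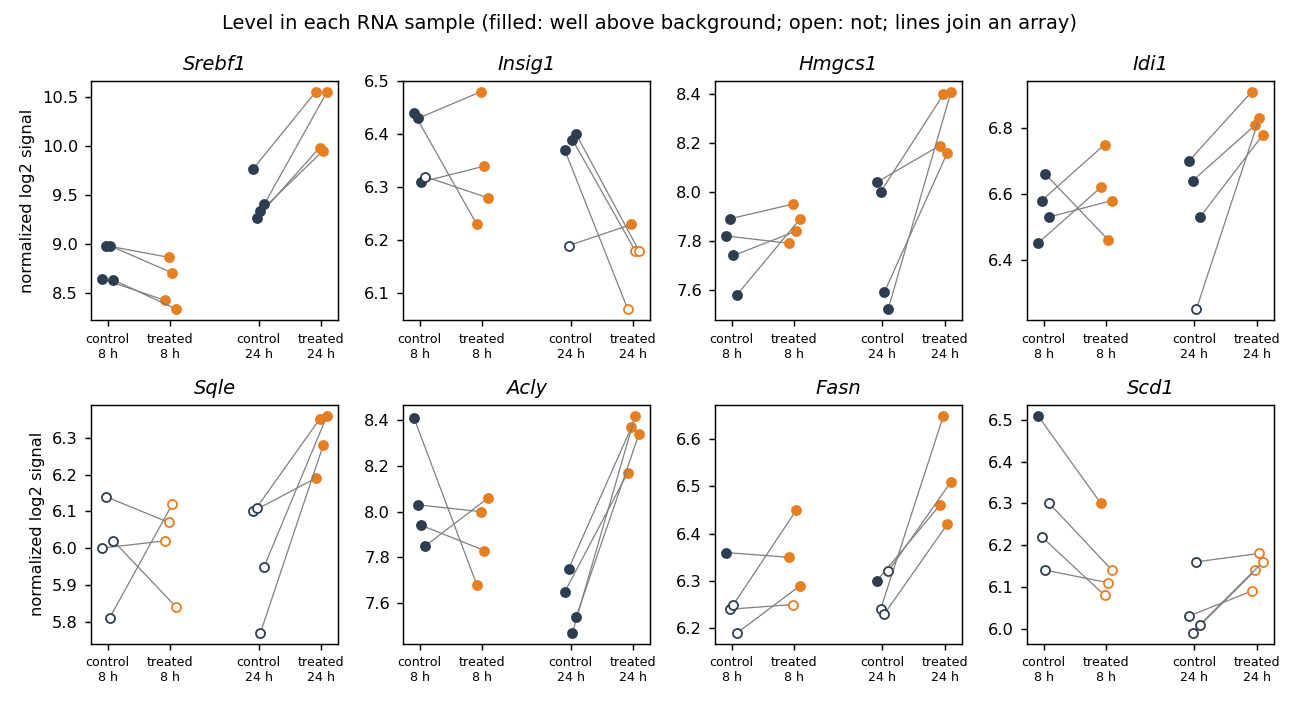
Normalized log2 signal (y axis, a different range in each panel) of each gene in control and treated RNA at 8 h and 24 h, 4 samples a group; grey lines join the samples of an array and open symbols were not well above background. At 24 h the treated levels of Srebf1, Hmgcs1, Idi1, Sqle, Acly and Fasn lay above all control levels, and at 8 h no gene separated the groups.

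The treated levels lay above all control levels at 24 h for Srebf1, Acly, Hmgcs1, Idi1, Fasn and Sqle. Sqle and Fasn were tested only because their treated samples were bright enough, so their separation is a description. Among the 12074 probes kept, 6.63% had treated levels that all lay above the control levels at 24 h, and 4.62% the reverse. For the dim genes, the size of the response depended on how background was handled. The main values add 50 scanner units to each corrected signal, which pulls the ratios of dim spots toward 0. On the ratios of the scanner software's processed signals, which add no such offset, the bright genes moved little: the mean log2 ratio at 24 h was 0.97 (SD 0.29, n = 4) for Srebf1, 0.90 (SD 0.27) for Acly and 0.53 (SD 0.39) for Hmgcs1. Hmgcs1 did not pass there (adjusted p = 0.0918).

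The dim genes moved by more on the processed signals. Idi1 stood at 1.16 (SD 0.72, n = 4, adjusted p = 0.00983), Fasn at 1.19 (SD 0.66, adjusted p = 0.0251) and Sqle at 2.18 (SD 0.29, adjusted p = 0.0013), with all 4 arrays above 0 for each. Fasn and Sqle therefore passed on this scale and not on the main one. The controls of Sqle, and 3 of the 4 controls of Fasn, were not well above background, so these sizes rest on control signals that were barely measured. Insig1 stood at -0.71 (SD 0.90, adjusted p = 0.171), below 0 on either scale.

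**Figure D3:**
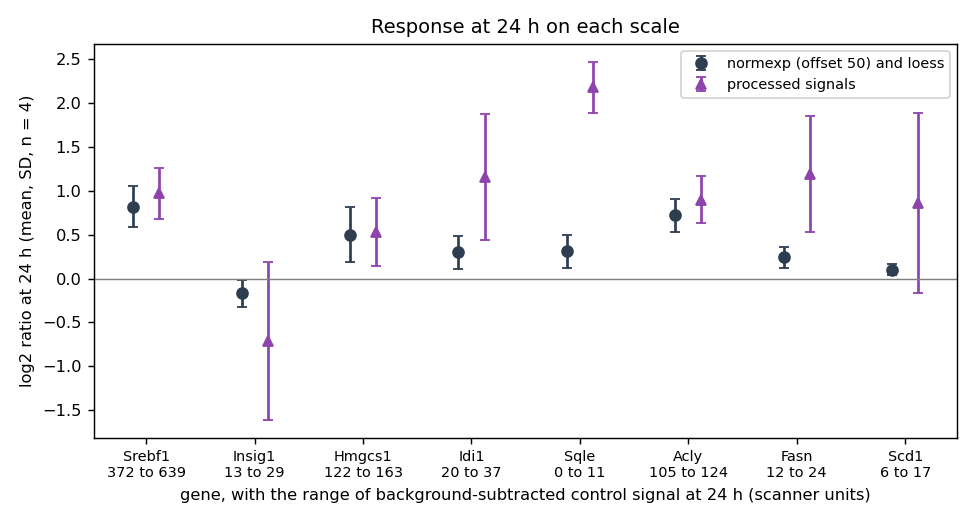
Mean log2 ratio at 24 h with SD of 4 arrays (y axis) for each gene under the main processing (circles) and from the processed signals (triangles); the labels give the range of background-subtracted control signal. Genes with control signals above 100 scanner units, Srebf1, Acly and Hmgcs1, stood at 0.82, 0.72 and 0.50 in the main processing and at 0.97, 0.90 and 0.53 from the processed signals, whereas Sqle moved from 0.31 to 2.18.

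The promoters of the 4 genes that rose, with Insig1 as the member with the opposite sign, are shown to set side by side the letters that SREBPs and a frequent partner, the CCAAT-binding factor NF-Y, are known to use. RefSeq's promoter table (GRCr8) held an entry for 6 of the 8 members. Shown are the 250 bases before each annotated start, 5′ to 3′ on the gene's strand, for Srebf1 at chr10:45529165-45529414 (first start, minus strand) and chr10:45519011-45519260 (second start, minus strand), Acly at chr10:85963632-85963881 (minus strand), Hmgcs1 at chr2:53382054-53382303 (plus strand), Idi1 at chr17:66547525-66547774 (minus strand) and Insig1 at chr4:8057770-8058019 (minus strand). Capitals mark CCAAT on either strand (ATTGG on the reverse) and, in Insig1 alone of these, the E-box CACGTG.
Srebf1 first start: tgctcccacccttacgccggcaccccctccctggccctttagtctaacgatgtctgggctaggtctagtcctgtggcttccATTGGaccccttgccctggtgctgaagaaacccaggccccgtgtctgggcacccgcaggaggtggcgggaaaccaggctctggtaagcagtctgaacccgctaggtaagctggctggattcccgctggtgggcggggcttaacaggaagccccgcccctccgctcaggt
Srebf1 second start: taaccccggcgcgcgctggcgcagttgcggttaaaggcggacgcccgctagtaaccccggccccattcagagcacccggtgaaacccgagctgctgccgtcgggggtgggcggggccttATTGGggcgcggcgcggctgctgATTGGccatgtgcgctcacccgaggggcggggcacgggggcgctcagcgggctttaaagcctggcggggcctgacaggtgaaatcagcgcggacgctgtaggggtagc
Acly: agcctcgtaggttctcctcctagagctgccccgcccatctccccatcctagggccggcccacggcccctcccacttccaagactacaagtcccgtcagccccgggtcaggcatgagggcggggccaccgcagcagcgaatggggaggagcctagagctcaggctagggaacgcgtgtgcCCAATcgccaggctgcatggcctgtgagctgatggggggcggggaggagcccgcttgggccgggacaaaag
Hmgcs1: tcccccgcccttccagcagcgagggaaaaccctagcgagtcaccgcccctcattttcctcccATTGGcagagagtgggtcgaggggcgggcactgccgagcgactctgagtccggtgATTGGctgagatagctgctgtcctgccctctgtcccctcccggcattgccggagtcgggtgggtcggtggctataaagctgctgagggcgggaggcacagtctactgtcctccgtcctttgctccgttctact
Idi1: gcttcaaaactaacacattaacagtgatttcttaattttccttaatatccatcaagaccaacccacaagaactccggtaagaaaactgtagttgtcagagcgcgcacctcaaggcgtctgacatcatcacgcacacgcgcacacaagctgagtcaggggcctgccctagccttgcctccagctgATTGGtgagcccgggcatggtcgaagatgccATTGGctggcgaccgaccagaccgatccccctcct
Insig1: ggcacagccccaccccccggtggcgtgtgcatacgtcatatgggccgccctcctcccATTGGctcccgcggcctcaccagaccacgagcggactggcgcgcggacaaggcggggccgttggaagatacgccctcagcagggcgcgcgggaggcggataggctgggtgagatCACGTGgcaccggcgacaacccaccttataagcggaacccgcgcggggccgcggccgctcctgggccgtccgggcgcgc

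Each of these 6 windows held CCAAT at least once. There were 2 matches each in Hmgcs1, Idi1 and the second start of Srebf1, and 1 each in Acly, Insig1 and the first start of Srebf1. The window of Scd held none. Over 33469 rat promoters of the same length, 34% held CCAAT on either strand and 5.59% held the E-box. GGGCGG, the GC box, was found in the windows of Srebf1, Acly, Hmgcs1 and Insig1 and in 30.5% of all promoters. TCACNCCAC, a form of the sterol regulatory element, was in none of the members' windows and in 0.974% of all promoters, and AGAACA, a half-site of the androgen response element, was in none of them and in 17.5%. Both strands were searched. A match is a description of the sequence only.

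At 8 h none of the 7 tested genes passed, where 0.0249% of 12069 probes did (0.0166% higher and 0.00829% lower), and 1 of the 7, Srebf1, had an unadjusted p under 0.05, against 16.9% of all probes. Srebf1 had log2 ratios of -0.22, -0.12, -0.28 and -0.30, all 4 below 0 (mean -0.23, SD 0.08, n = 4, adjusted p = 0.273). Among all probes kept, 11.9% lay below 0 on all 4 arrays at 8 h and 9.45% above. Its treated levels (8.33 to 8.86) and control levels (8.63 to 8.98) overlapped, as they did for every member. Treated levels lay wholly above the control levels for 2.17% of probes at 8 h and wholly below for 3.5%. Median centring in place of loess centred each array on all its gene spots, dim ones included. The median of the 12069 tested probes at 8 h then moved from -0.0106 to 0.119. Under it Srebf1 stood at 0.11, or -0.01 relative to the median of the tested probes.

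Acly was the most variable member at 8 h, with log2 ratios of -0.74, -0.03, -0.11 and 0.21. The low value came from the array of replicate 1, the array with the widest spread. The mean of -0.17 (SD 0.40, n = 4, adjusted p = 0.534) was 0.05 without that array. Hmgcs1 stood at 0.11 (SD 0.15), Fasn at 0.08 (SD 0.09), Idi1 at 0.05 (SD 0.17), Sqle at 0.02 (SD 0.21) and Insig1 at -0.05 (SD 0.11). Each of these had arrays on both sides of 0. Scd1, not tested, lay between -0.21 and -0.03.

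**Figure D4:**
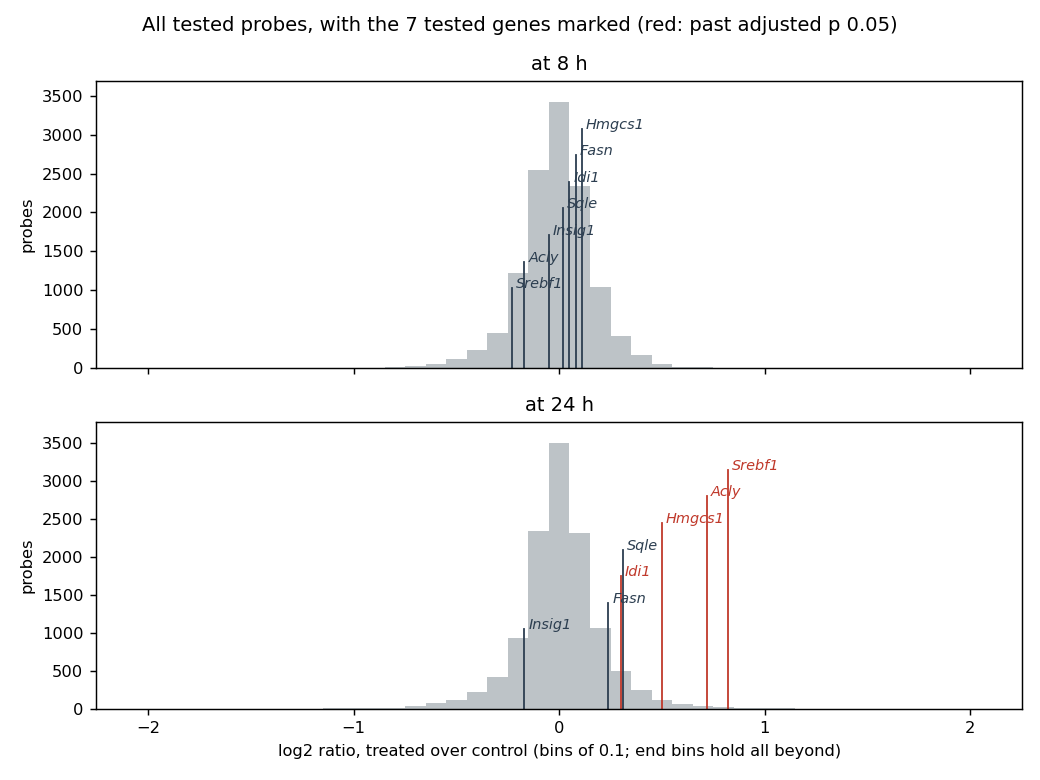
Number of tested probes (y axis) by log2 ratio of treated over control (x axis, bins of 0.1) at 8 h (top) and 24 h (bottom), with the 7 tested genes marked, in red where adjusted p was under 0.05. At 8 h the genes lie between -0.23 and 0.11, within the bulk of probes, and at 24 h Srebf1 (0.82) and Acly (0.72) lie in the upper tail.

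Between the times, Srebf1 was the 1 member of 7 whose response differed, being higher at 24 h. The difference in log2 ratio was 1.05 (95% interval 0.79 to 1.32, adjusted p = 0.0065), and 1.28% of all probes differed, 0.746% higher at 24 h and 0.539% lower. Acly differed by 0.89 (95% interval 0.46 to 1.32) without passing (adjusted p = 0.0604), and passed once replicate 1 of 8 h (0.67, adjusted p = 0.0404) or replicate 2 (0.96, adjusted p = 0.0374) was left out. Hmgcs1 (0.39), Sqle (0.29), Idi1 (0.25), Fasn (0.16) and Insig1 (-0.13) did not pass, with adjusted p from 0.245 to 0.599. On the processed signals Sqle differed by 2.71 (adjusted p = 0.0168), a size that rests on samples not well above background in all groups but the treated one of 24 h. Under median centring the difference of Srebf1 was 1.10 and did not pass (adjusted p = 0.341). Each time had its own slide, and the effects of slide and time cannot be told apart.

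The control samples themselves differed between the slides. The control level of Srebf1 was 8.81 (SD 0.20, n = 4) at 8 h and 9.44 (SD 0.22, n = 4) at 24 h on the normalized log2 scale, with no overlap between 8.63 to 8.98 and 9.26 to 9.76. The share of all probes whose control levels separated between the slides was not analysed here, so how unusual this is cannot be said. The treated level of Srebf1 was 8.58 (SD 0.24) at 8 h and 10.26 (SD 0.34) at 24 h. For Acly the control level was 8.06 (SD 0.25) at 8 h and 7.60 (SD 0.12) at 24 h, and the treated level 7.89 (SD 0.18) and 8.32 (SD 0.11). Its control levels, from 7.85 to 8.41 at 8 h and from 7.47 to 7.75 at 24 h, did not overlap either. The control levels of Hmgcs1, Idi1, Fasn, Sqle and Insig1 differed between the times by at most 0.04 in either direction, and that of Scd1, not tested, by -0.25 (24 h minus 8 h).

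No tested probe of the wider pathway passed. Of 47 other genes of cholesterol synthesis, SREBP control, fatty acid synthesis and glycerolipid assembly, 25 were tested through 28 probes, and 0 were called by limma at 24 h, at 8 h or between the times, where 6.9%, 0.0249% and 1.28% of all probes were. At an unadjusted p under 0.05, 5 of the 28 probes were found at 24 h, 5 at 8 h and 2 between the times, against 22%, 16.9% and 16.1% of all probes. With so few probes, these counts do not set the list apart from the array. Their median log2 ratio at 24 h was 0.04, against 0.00 for all probes, and the values ran from -0.24 to 0.21. In cholesterol synthesis 7 of 9 probes lay above 0 at 24 h (median 0.10), against 50.7% of all probes. Among these, Msmo1, the sterol demethylation oxidase, stood at 0.21 (SD 0.15, adjusted p = 0.124) and Cyp51, the lanosterol demethylase, at 0.17 (SD 0.04, adjusted p = 0.119), each above 0 on all 4 arrays. Fdft1, which makes squalene, stood at -0.24 (SD 0.32, adjusted p = 0.198).

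Srebf2, the gene of the SREBP best known for sterol synthesis, stood at 0.11 (SD 0.16, adjusted p = 0.538) at 24 h, with 3 of 4 arrays above 0. Scap, the escort, stood at -0.03 (SD 0.06, adjusted p = 0.926). Neither probe of Insig2, the second retention protein, was bright enough to be tested, nor was that of Acaca, which makes the malonyl-CoA used by Fasn. In fatty acid synthesis 6 of 9 probes lay above 0 (median 0.04), with Scd2 highest at 0.21 (SD 0.18, adjusted p = 0.203).

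**Figure D5:**
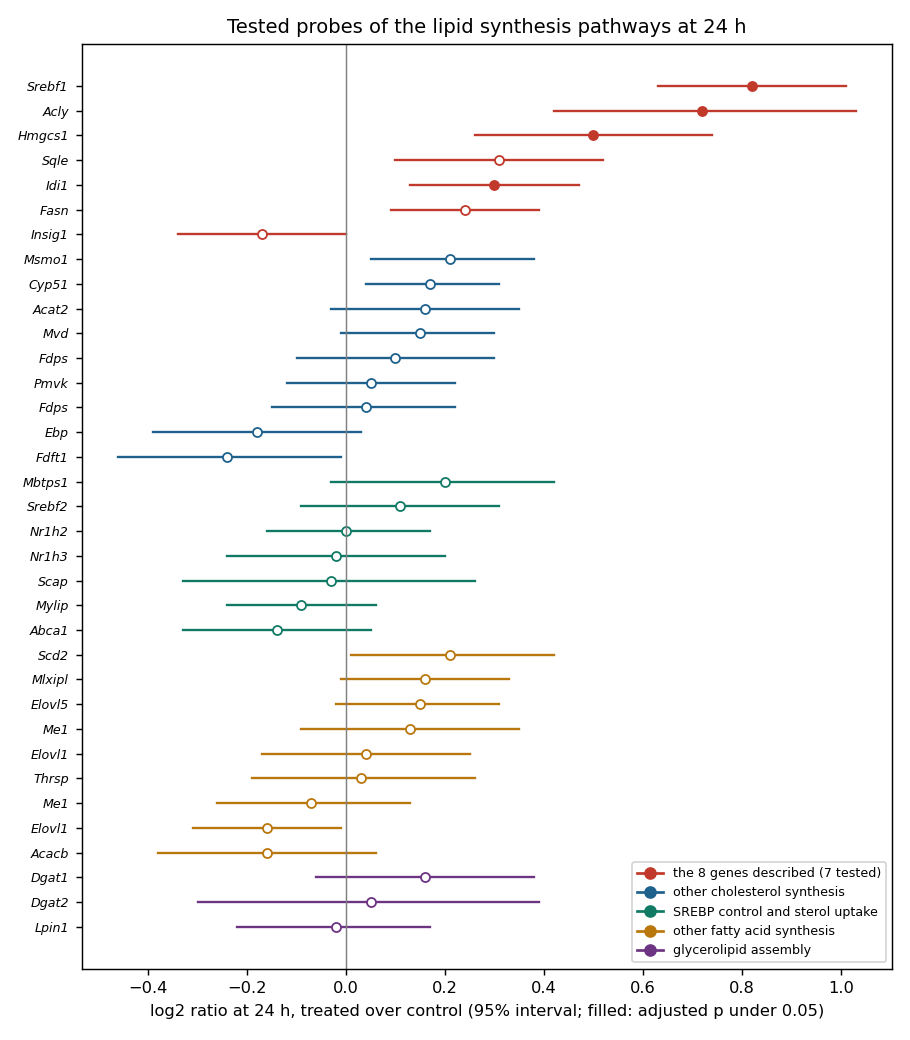
Log2 ratio of treated over control at 24 h with its 95% interval (x axis) for every tested probe of the members and of 4 other pathway groups (y axis, one line a probe); filled symbols have adjusted p under 0.05. The filled symbols are Srebf1, Acly, Hmgcs1 and Idi1, and the other 28 probes lie between -0.24 and 0.21.

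Markers of other cells moved at 24 h as well. Fat cells are rich in lipid synthesis enzymes, and 5 of 10 adipocyte markers were tested, with log2 ratios from 0.12 to 0.43 at 24 h. Fabp4, a fatty acid carrier of fat cells and macrophages, rose by 0.43 (SD 0.09, n = 4, adjusted p = 0.00378). It was the 1 called of the 5, where 4.15% of all probes were called higher. Adipoq stood at 0.37 (SD 0.05, adjusted p = 0.0698), Cfd at 0.39 (SD 0.35, adjusted p = 0.157), Retn at 0.43 (SD 0.41, adjusted p = 0.113) and Cidea at 0.12 (SD 0.27, adjusted p = 0.477). Lep, Cidec and Pck1 were not well above background in any sample, and Plin1 was in 1 of 16. The summed signal of the adipocyte probes ran from 2130 to 3120 in treated and from 1910 to 2270 in control samples at 24 h, and from 1870 to 2890 and from 2410 to 3420 at 8 h. The log2 ratio of the sums at 24 h was 0.52, 0.16, 0.46 and 0.03 for replicates 1 to 4. The ratios of Cfd, 0.73, 0.16, 0.65 and 0.01, varied among the arrays in the same order. Cfd is in the sum and is its brightest probe (10.34 on the log2 scale, the next being Cidea at 7.84), so the shared order is no separate observation. Adipoq (0.29 to 0.41) and Fabp4 (0.35 to 0.54) were above 0 on all 4 arrays. Fabp4 also differed between the times, by 0.60 (adjusted p = 0.0124). The part of these markers in the members' values was not tested. If the RNA came from whole tissue, which the labels do not state, more cells of a type and more RNA per cell cannot be told apart.

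Of 7 macrophage markers, all tested through 8 probes, 4 genes rose at 24 h: Lyz2 by 0.65, C1qa by 0.69, Cd163 by 0.50 and C1qc by 0.43, each on all 4 arrays, with adjusted p of at most 0.035, where 4.15% of all probes were called higher. The other 3 did not pass: Cd68 stood at -0.02, Adgre1 at 0.05 and the 2 probes of Csf1r at -0.03 and 0.08. C1qa (0.77, adjusted p = 0.0119), Cd163 (0.85, adjusted p = 0.0182) and C1qc (0.77, adjusted p = 0.00738) also differed between the times. The list's summed signal ran from 3630 to 5620 in treated and from 2860 to 3790 in control samples at 24 h, and from 2820 to 4910 and from 3280 to 5240 at 8 h. The erythrocyte sums at 24 h ran from 2950 to 10400 and from 2190 to 4170, and no probe passed. All 7 skeletal muscle markers on the array were bright enough to be tested. Of these, 1 was called lower at 24 h and 6 were not called, where 2.75% of all probes were called lower. Acta1, the muscle actin, fell by 0.44 (SD 0.15, n = 4, adjusted p = 0.0219). The 7 log2 ratios ran from -0.53 to 0.14, and Mb, the highest, was above 0 on all 4 arrays. The list's summed signal ran from 97500 to 113000 in treated and from 129000 to 146000 in control samples at 24 h, with no overlap. Bright probes such as Tnni2 (adjusted p = 0.145) and Atp2a1 (adjusted p = 0.0757) weigh most in this sum, and neither passed. Among single probes kept, 4.62% had treated levels that all lay below the control levels at 24 h. The part of the muscle, macrophage and erythrocyte markers in the members' values was not tested.

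The genes most like Srebf1 over the 8 arrays, by the smallest root mean square difference of their log2 ratios among 8410 probes with a symbol, were Tuba1b (0.21), Myl6 (0.233), Adgrg2 (0.24), Tjap1 (0.246) and Manba (0.247). Tuba1b, an alpha tubulin, stood at 0.85 at 24 h and -0.10 at 8 h, and Myl6, a myosin light chain of non-muscle and smooth muscle cells, at 0.73 and -0.13. Among the members, Acly ranked 39 on this measure with a difference of 0.331 and Hmgcs1 ranked 93 with 0.382. Idi1, Sqle and Fasn ranked 463, 356 and 671, and Insig1 ranked 6948.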

How the data were processed

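Total RNA was labelled with Cy3 or Cy5 (Quick Amp kit, Trizol extraction, per the labels' protocols) and hybridised to 8 Agilent 2-colour arrays, 4 at each time, with dyes swapped on 2 of each 4. The submitters' processing notes name Feature Extraction (Agilent), version 9.5.3.1. The authors deposited mean spot and median background signals and processed signals as intensity values on a linear scale, per the file headers, and a log10 ratio of red over green. Their value table was deposited as log2 ratios of unstated direction. Set as treated over control, log2 ratios of processed signals equalled it within 1.4e-05, with no added centring and column medians from -0.144 to 0.0896, so it was used through those signals as an alternative.

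Here, limma 3.58.1 under R 4.3.3 was used. Local background was removed with normexp, adding an offset of 50, and loess then took out the dye trend of every array. Control spots and outlier spots (731 to 927 of 42877) were left out. Spots of a probe were averaged. A probe was tested if any of the 4 RNA groups had it well above background in 3 or more of its 4 samples, which kept 12074 of 30367 probes. Between 32.8% and 44.9% of probes were well above background in a sample, and the number of arrays limits the precision. Levels are loess and Aquantile normalized log2 signals per channel, open to dye bias. Probes are compared with themselves only.

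The linear model over all 8 arrays estimated the 8 h response, the 24 h response and, per probe, a dye effect (lmFit, eBayes, two-sided, Benjamini-Hochberg adjustment over all probes tested). It was tested on simulated data. Named genes were the 8 members, list genes past the threshold, 6 chosen pathway genes (Srebf2, Insig2, Scap and Acaca, with the others not reported here) and the 5 genes most like Srebf1, leaving out placeholder symbols. Other list genes (Msmo1, Cyp51, Fdft1, Scd2 and the adipocyte, macrophage and muscle markers that did not pass) fall outside this rule and were named after their values were seen. The members and lists were chosen with earlier results of these data known. Current symbols came from RefSeq (GRCr8, names only) for 20861 probes. Same-numbered arrays of 8 h and 24 h were not treated as pairs, since their deviations from the time means correlated at -0.257, 0.173, -0.166 and -0.0698.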

Additional observations from a re-analysis of the deposited data

Results flagged for a closer look

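At 24 h the Fasn ratio on the array of replicate 2, 0.41, lay far from the other 3, which were between 0.16 and 0.19: its gap to the nearest took a share of 0.868 of the whole range, above the critical value of Dixon's test for 4 samples at 95%. It was the 1 such value among 16 sets of 4 ratios examined, and chance gives about 1 in 20. The control signal of Fasn on that array was not well above background.

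The response of Srebf1 differed between the times by 1.05 on the log2 scale (adjusted p = 0.0065), from -0.23 at 8 h to 0.82 at 24 h, lower in 4 of 4 arrays at 8 h and higher in 4 of 4 at 24 h. Slide and time cannot be told apart in this difference. Under median centring the 8 h value was 0.11, and the difference of 1.10 did not pass (adjusted p = 0.341).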

How the results depend on the processing

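Precision was limited by 4 arrays a time and, for Fasn, Idi1, Sqle, Insig1 and Scd1, by signals near background. The rise of Srebf1 at 24 h held under all 9 other settings (0.82 to 1.20) and with any one array left out (0.72 to 0.92), and that of Acly under all 9 settings (0.69 to 1.02). Hmgcs1 kept its call in 8 of 9 settings and Idi1 in 6 of 9, losing it under median centring (adjusted p = 0.0504), without a dye coefficient and with the replicate block (adjusted p = 0.0929). The cause was not tested for any change below.

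With one array left out, the number of members called ran from 1 to 5 at 24 h and from 1 to 2 between the times, and was 0 at 8 h. Over all probes these counts ran from 208 to 1312 at 24 h, from 0 to 1300 at 8 h (1300 without the array of replicate 2) and from 33 to 629 between the times, against 833, 3 and 155 in the main fit. Median centring moved the median of the tested probes at 24 h to 0.153. It gave 437 probes at 24 h (418 higher and 19 lower, 95.7% higher against 60.1% in the main fit). At 8 h it gave 0 (2101 at an unadjusted p under 0.05) and between the times 0 (1002 unadjusted). With it, 0 members differed between the times. Array weights gave 1670 at 24 h and 306 between the times, and 6 members at 24 h, with Fasn (adjusted p = 0.0237) and Sqle (adjusted p = 0.0462) among them. Each time fitted alone gave 5 members, Sqle included (adjusted p = 0.0167), 1710 probes at 24 h and 0 at 8 h (1252 unadjusted), and the fit without a dye coefficient 1 at 8 h. Processed signals gave 83 between the times. Under processed signals, array weights and the replicate block 2 members differed between the times. The replicate block gave 8 probes at 8 h and 342 between the times, and with it Acly passed between the times (0.89, adjusted p = 0.0249). As 1 of 4 arrays of 8 h correlated best with its own number, this pairing is not given by the design.

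Signs turned at 8 h only, for values that never passed. Srebf1 (0.11) and Acly (0.12) lay above 0 and Sqle (-0.06) below 0 under median centring, and Sqle stood at -0.53 on the processed signals. With one array left out, the 8 h values ran from -0.30 to 0.05 for Acly, 0.00 to 0.10 for Idi1, -0.11 to 0.08 for Sqle and -0.10 to 0.00 for Insig1.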
